A study of Mus musculus with 6 samples.

Results

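Integrins are receptors made of an alpha and a beta chain that hold a cell to its surrounding matrix, and laminins are trimers of an alpha, a beta and a gamma chain that form the core of the basement membrane. In skeletal muscle the integrin α7β1 and the dystroglycan complex both bind the laminin trimer whose chains Lama2, Lamb1 and Lamc1 encode, and so tie the fibre's cytoskeleton to the matrix around it. Loss of the laminin α2 chain or of integrin α7 causes muscular dystrophy in humans and mice. The genes described here are all rows of a mouse gene count table whose symbol names an integrin alpha or beta chain or a laminin chain, with binding partners of integrin tails left out. There were 40 such rows of 46983: 19 for integrin alpha chains, 9 for integrin beta chains, 11 for laminin chains and Itgbl1. The last encodes a secreted protein that resembles the beta chains but is not a receptor subunit. Itgam had 2 rows, of which 1 was at 0 throughout, so the rows carried 39 symbols.

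RNA was sequenced from myotubes of C2C12, an established line of wild-type mouse myoblasts that fuses into multinucleated fibres in horse serum. Cultures below passage 7 received corticosterone, the main glucocorticoid of rodents, at 1e-07 M for 24 h, or ethanol at 1 µL/mL as vehicle for the same time. Each treatment had 3 libraries, which the submitters call independent biological replicates. They are written COR1, COR2 and COR3 for corticosterone and VEH1, VEH2 and VEH3 for vehicle, and values of a treatment are given in that order. Because a culture holds both myotubes and unfused cells, fewer cells of a type and less RNA per cell cannot be told apart in these libraries.

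The labels of COR2 and VEH2 are in doubt. Fkbp5, Tsc22d3 and Per1, which glucocorticoids are known to induce, were high in COR1, COR3 and VEH2 and low in COR2, VEH1 and VEH3. Their summed level was 454.5, 138.4 and 455.8 CPM (counts per gene divided by the scaled library total) in the libraries labelled corticosterone, against 135.5, 517.3 and 146.7 CPM in those labelled vehicle. The libraries also lay in pairs, of which 1 crossed the labels. Across all genes tested, deviations from the mean of the 6 libraries correlated at r = 0.236 for COR1 with VEH3, 0.217 for COR2 with COR3 and 0.352 for VEH1 with VEH2, and below 0 for the other 12 combinations. Each of these pairs held a library with the higher and a library with the lower level of those 3 genes. Results are therefore given by label, and then library by library with COR1, COR3 and VEH2 beside COR2, VEH1 and VEH3. The second arrangement rests on genes measured in the same libraries and is not a record of treatment, so no group mean or test is given for it, and differences only library against library.

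The cultures expressed the muscle laminin receptor at a high level. Itga7, which encodes integrin α7 (ENSMUSG00000025348, GRCm38 chromosome 10, 128933818 to 128958282), stood at 1907, 2292 and 1836 CPM with corticosterone, against 1791, 1724 and 2213 CPM with vehicle. Itgb1, which encodes the β1 chain shared by most matrix integrins (ENSMUSG00000025809, chromosome 8, 128685654 to 128733200), stood at 1539, 1493 and 1409 CPM with corticosterone, against 1521, 1578 and 1437 CPM with vehicle. Both genes overlapped fully between the labels, and Itgb1 varied least of the 34 members tested, with its highest library 1.12 times its lowest. The label of the cells was thus borne out for Itga7, whereas the shared β1 chain does not mark muscle. The myotube genes Myog, Acta1 and Myh3 were also present in each library, Myog at 746.7, 790.2 and 834.7 CPM against 630.8, 673.7 and 863.6 CPM. Defining genes of leukocytes and epithelia (Ptprc, Adgre1, Epcam, Krt5) were at 0 in all 6 libraries, and Pecam1 of endothelial cells reached at most 0.175 CPM. Other genes of the same lists were present at a low level, with Cdh1 at 5.04 to 8.64, Krt14 at 1.64 to 4.59, Cd68 at 0.827 to 2.03 and Tek at 0.349 to 0.626 CPM.

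To compare chains with each other, CPM was divided by the length of the merged exons in kilobases. That length covers the exons of all annotated transcripts, 8092 bases for Itga7 and 4081 for Itgb1, so ranks and shares per kb depend on it. Before division Itga7 averaged 1960 CPM and Itgb1 1496 CPM. Over the 6 libraries Itgb1 averaged 367 and Itga7 242 CPM per kb, followed by Itgb5 at 152, Itga5 at 46.9, Lamc1 at 26.1, Itgav and Lamb2 at 24.5 each and Lama5 at 21 CPM per kb. Itgb5 encodes the β5 chain, which pairs with αv to bind vitronectin, and Itga5 the α5 chain of the fibronectin receptor. Itga7 gave 67.8 ± 2.7% of the summed alpha chain level per kb with corticosterone and 67.6 ± 4% with vehicle, and Itgb1 gave 71.4 ± 2.9% and 67.4 ± 3.3% of the beta chain level (SD, n = 3 each). These shares overlapped between the labels for both genes. Lamc1, whose γ1 chain is part of most laminins, gave 86.6 ± 3.2% of the gamma chain level with corticosterone and 89.7 ± 0.78% with vehicle. Its share did not overlap between the labels, at 88.6, 88.3 and 82.8% with corticosterone and 90.6, 89.2 and 89.2% with vehicle. CPM of Lamc1 itself did overlap. Lamb2 and Lamb1 were close to each other, at 46.4 ± 6.3% and 39.8 ± 5.4% of the beta chain level with corticosterone and 47.2 ± 2.5% and 38.4 ± 2.1% with vehicle.

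Among laminin alpha chains, Lama5 exceeded the adult muscle chain Lama2 per kb in each library. Lama5 stood at 22.7, 28.7 and 17.2 CPM per kb with corticosterone, against 16.2, 16.1 and 25.1 CPM per kb with vehicle. Lama2 stood at 7.35, 3.45 and 4.08 CPM per kb with corticosterone, against 3.60, 4.52 and 4.64 CPM per kb with vehicle, and was chosen for description after its values were seen. Its highest library, COR1, was 2.13 times its lowest, COR2, and Lama5 was highest in COR2. Of the other alpha chains, Lama4 of vessels averaged 0.428, Lama1 of embryonic basement membranes 0.178 and the epidermal Lama3 0.0561 CPM per kb. Lama4 ranged from 2.45 to 6.61 CPM with corticosterone and from 3.01 to 7.35 CPM with vehicle.

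**Figure D1:**
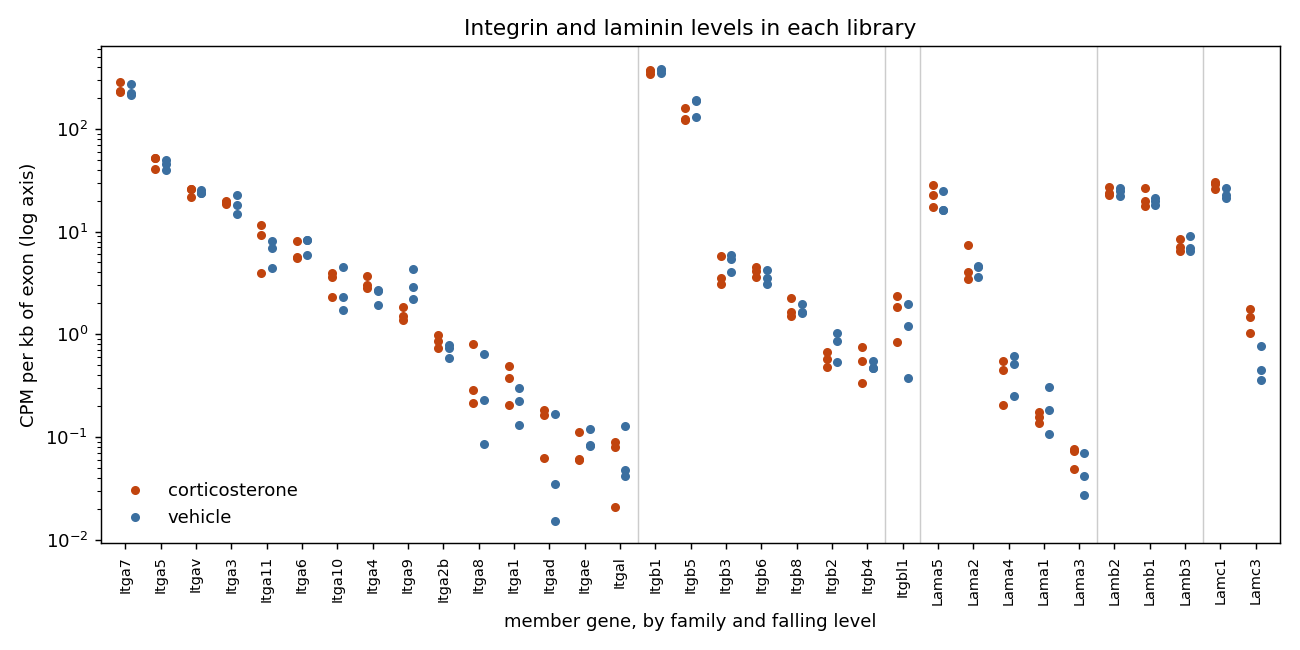
Level of all but 1 of the 34 tested members in each library, in CPM per kilobase of merged exon on a log axis, with corticosterone libraries in red and vehicle libraries in blue and families separated by grey lines. Itgb1, Itga7 and Itgb5 stand above the rest, and the red and blue points overlap for all members plotted but Itga4, Itga9 and Lamc3.

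A small group of members was scarce. Under the count filter lay 6 rows: Itga2, Itgax, Itgb2l, Itgb7 and both rows of Itgam, which encode chains of leukocytes, platelets and epithelia. Itgam had 15, 11 and 6 counts with corticosterone and 8, 1 and 5 counts with vehicle, and its 2 gene models share 3450 exon bases, so its reads may be split or lost. Itgb2l and the second Itgam row had 0 counts in all 6 libraries, where a floor of 3 counts equals 0.103 to 0.125 CPM. Itgad, Itgae, Itgal and Lama3 passed the filter with less than 1 CPM in every library. Those 4 are uncertain at this depth, and exons of Itgad overlap those of Cox6a2, a muscle gene at 46.3 to 77.6 CPM that lies on the opposite strand. Total counts ran from 23877583 to 29928653 per library.

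Bases before the gene start are shown for 4 members with a RefSeq entry (GRCm38.p6) and no annotated exon in the window. They are the receptor chains at high level Itgb1, Itgb5 and Itga5, and Itga4, which did not overlap between the labels. Each run holds the 250 bases before the start, with capitals for AGAACA, the half-site of the glucocorticoid receptor, and for CANNTG, the E-box that myogenic factors bind, on either strand. The windows are chr8:128685404-128685653 (plus strand), chr16:33829415-33829664 (plus strand), chr15:103366792-103367041 (minus strand) and chr2:79255176-79255425 (plus strand).
Itgb1: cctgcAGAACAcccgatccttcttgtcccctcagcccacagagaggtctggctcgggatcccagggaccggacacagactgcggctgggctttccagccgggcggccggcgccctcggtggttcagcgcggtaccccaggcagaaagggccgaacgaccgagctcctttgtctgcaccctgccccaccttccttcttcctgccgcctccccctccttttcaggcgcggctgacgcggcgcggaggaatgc
Itgb5: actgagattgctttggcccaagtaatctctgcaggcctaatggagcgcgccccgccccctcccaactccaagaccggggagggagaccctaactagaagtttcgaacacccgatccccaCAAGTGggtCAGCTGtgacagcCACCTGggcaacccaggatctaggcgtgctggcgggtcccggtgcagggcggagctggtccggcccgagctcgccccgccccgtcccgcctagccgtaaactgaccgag
Itga5: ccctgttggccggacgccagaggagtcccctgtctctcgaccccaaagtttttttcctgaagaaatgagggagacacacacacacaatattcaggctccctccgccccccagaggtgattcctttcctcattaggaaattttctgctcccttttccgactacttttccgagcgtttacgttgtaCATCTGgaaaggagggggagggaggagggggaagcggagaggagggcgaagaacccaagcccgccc
Itga4: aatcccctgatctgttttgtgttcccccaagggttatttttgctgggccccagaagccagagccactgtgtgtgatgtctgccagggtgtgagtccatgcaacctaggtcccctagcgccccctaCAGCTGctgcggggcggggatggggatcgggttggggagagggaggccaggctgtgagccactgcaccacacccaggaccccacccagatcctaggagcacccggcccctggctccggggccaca
AGAACA was present in 1 of these windows, that of Itgb1, and E-boxes in the other 3, of which Itgb5 had 3. Of the 25 members with an entry, 5 held AGAACA in any of their windows (Itga2, Itgax, Itgb1, Itgb7 and Lama2) and 20 held CANNTG. Over 32536 different windows of the same length, counted by window and not by gene, the shares were 16.0% and 66.2%. A match describes these letters and is not evidence of binding.

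By label, no integrin or laminin passed in edgeR. edgeR's quasi-likelihood test called 0 of 34 members tested at an adjusted p of 0.05, and 0 of all 14450 genes (percent called 0). At an unadjusted p under 0.05 there were 5 members, 14.7%, beside 11.8% of all genes tested. With corticosterone 23 members lay higher (67.6%) and 11 lower, where 50.8% of all genes tested lay higher. Their median log2 difference was 0.105, beside 0.004 over all genes. limma-voom called 0 members and DESeq2 called 2, Lamc3 and Itga9, where it called 138 genes in all (1.04% of those it tested). CPM of 3 members did not overlap between the labels, 2 higher and 1 lower with corticosterone. Over all genes tested the share without overlap was 16.6%, with 8.41% higher and 8.19% lower.

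Lamc3, Itga9 and Itga4 were those 3. Lamc3, which encodes the laminin γ3 chain (ENSMUSG00000026840, chromosome 2, 31887291 to 31946539), stood at 6.32, 8.94 and 10.7 CPM with corticosterone, against 2.19, 2.76 and 4.72 CPM with vehicle. All 3 libraries labelled corticosterone were above all 3 labelled vehicle, and the log2 difference was 1.43 ± 0.32 (SE; adjusted p = 0.364 in edgeR and 0.00971 in DESeq2). Its level was low beside the main gamma chain, with a mean of 0.975 CPM per kb beside 26.1 for Lamc1. An antisense gene on the opposite strand shares 382 of its exon bases and had 0 counts.

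Itga9 lay the other way. It encodes integrin α9, which binds tenascin C and VCAM1 with β1 (ENSMUSG00000039115, chromosome 9, 118606690 to 118901003), and stood at 14.1, 11.5 and 10.7 CPM with corticosterone, against 33.0, 22.3 and 16.9 CPM with vehicle. VEH1 and VEH2, which lay near each other over all genes, were highest, and the log2 difference was -0.99 ± 0.24 (SE; adjusted p = 0.364 in edgeR and 0.0184 in DESeq2). Summed markers of fibroblasts and of dividing myoblasts are given beside it. The summed level of 4 fibroblast markers was 37.8, 56.0 and 54.9 CPM with corticosterone and 102.2, 77.7 and 41.7 CPM with vehicle, with Dcn and Pdgfra giving most of it and Thy1 at or near 0. Dcn alone was highest in VEH1 and VEH2, whereas Pdgfra, Lum and Thy1 each had a corticosterone library above VEH1 or VEH2. For 7 markers of dividing myoblasts the sum was 245.2, 238.5 and 231.5 CPM with corticosterone and 282.6, 272.8 and 279.4 CPM with vehicle. That sum separated the labels, as Lamc3, Itga9 and Itga4 did, but of its 7 genes only Top2a, Ccna2 and Ccnb1 did so. Mki67 and Cdk1 overlapped, and Pax7 and Myf5 overlapped with log2 differences of 0.09 and 0.14. The part of either list in the differences of Lamc3, Itga9 and Itga4 was not tested.

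Itga4, which encodes the α4 chain that binds VCAM1 and fibronectin (ENSMUSG00000027009, chromosome 2, 79255426 to 79333123), gave 39.2, 51.3 and 41.9 CPM with corticosterone, against 37.8, 26.8 and 36.6 CPM with vehicle. Its exons share 1124 bases with Cerkl on the opposite strand, which had 0 to 6 counts. The gap between COR1 and VEH1 was small, and the log2 difference of 0.39 ± 0.16 (SE, edgeR adjusted p = 0.406) became 0.12 with both libraries numbered 2 left out. Lamc1 (ENSMUSG00000026478, chromosome 1, 153218922 to 153332786) stood at 250.5, 240.6 and 215.9 CPM with corticosterone, against 177.5, 187.6 and 221.6 CPM with vehicle. Its groups overlapped through COR3 and VEH3, and its levels differed by 0.27 ± 0.11 on the log2 scale (SE; adjusted p = 0.403 in edgeR).

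**Figure D2:**
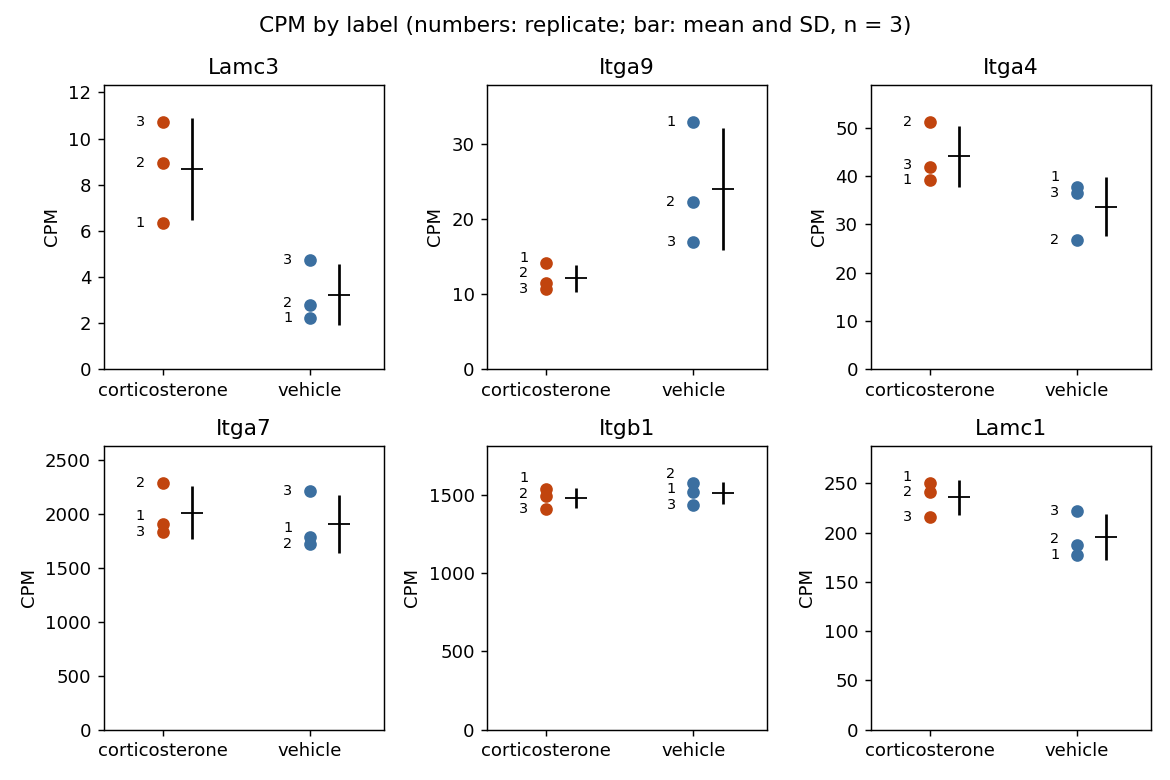
CPM of Lamc3, Itga9, Itga4, Itga7, Itgb1 and Lamc1 in each library by label, with replicate numbers beside the points and the mean and SD (n = 3) as a black bar. In the upper row the treatments do not overlap, and in the lower row they do.

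How far Lamc3 and Itga9 moved depended on which libraries were left out. Without corticosterone and vehicle replicate 2 both log2 differences stayed near those of the full set. Lamc3 was at 1.30 beside 1.43, and Itga9 at -1.01 beside -0.99. The SE was larger, 0.435 beside 0.318 for Lamc3 and 0.332 beside 0.241 for Itga9. As in the full set, edgeR called no member, and both genes had an adjusted p of 0.724 in this smaller fit. With COR1 and VEH3 left out, edgeR called Lamc3 (log2 difference 1.98, adjusted p = 0.0178), Itga9 (-1.32, adjusted p = 0.0347) and Itgad, among 575 of 14511 genes (3.96%). That fit sets the near pair COR2 and COR3 against the near pair VEH1 and VEH2. A difference by label and a difference between these pairs cannot be told apart in it.

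The main receptor chains differed little by label. For Itga7 the log2 difference was 0.07 ± 0.14 (SE, edgeR adjusted p = 0.839) and for Itgb1 -0.03 ± 0.09 (adjusted p = 0.902). Itga7 was highest in COR2 and VEH3, and its difference turned to -0.03 without COR2. Itgb5 was at 433.9, 563.5 and 439.2 CPM with corticosterone, against 660.2, 678.5 and 458.6 CPM with vehicle, high in VEH1 and VEH2 and overlapping through COR2 and VEH3 (log2 difference -0.32 ± 0.17, edgeR adjusted p = 0.489). Itgav, the αv chain, ranged from 232.2 to 281.7 CPM with corticosterone and from 255.2 to 274.3 CPM with vehicle. Itgb2, the beta chain of leukocyte integrins, ranged from 1.47 to 2.06 CPM and from 1.63 to 3.13 CPM (log2 difference -0.48 ± 0.29, edgeR adjusted p = 0.534).

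The remaining integrin chains overlapped between the labels as well and are given for completeness, having been picked by no rule. Itga3, the α3 chain of a laminin receptor, ranged from 105.8 to 113.7 CPM with corticosterone and from 85.0 to 128.3 CPM with vehicle. Itga11, the α11 chain of a collagen receptor, was at 20.4, 59.7 and 47.1 CPM with corticosterone, against 41.4, 35.7 and 22.8 CPM with vehicle, and was thus low in COR1 and VEH3 and high in COR2. The platelet chain Itga2b ranged from 4.05 to 5.34 CPM with corticosterone and from 3.21 to 4.26 CPM with vehicle. Of the beta chains, Itgb4 of hemidesmosomes ranged from 2.38 to 5.31 CPM with corticosterone and from 3.28 to 3.87 CPM with vehicle. Itgb6 and Itgb8, which pair with αv and activate latent TGF-β, ranged from 25.8 to 32.2 and from 16.7 to 25.0 CPM with corticosterone, against 22.0 to 29.9 and 17.9 to 21.8 CPM with vehicle. By family, 11 of 15 alpha chains and 3 of 7 beta chains lay higher with corticosterone, with median log2 differences of 0.10 and -0.03. Of all genes tested, 50.8% lay higher. None passed in edgeR, and DESeq2 called Itga9.

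Laminin chains of the common trimers also overlapped between the labels. On the log2 scale Lama5 differed by 0.26 ± 0.23 (SE; adjusted p = 0.661 in edgeR), Lamb1 by 0.11 ± 0.16 (adjusted p = 0.797) and Lamb2, the chain of the synaptic basement membrane, by 0.01 ± 0.10 (adjusted p = 0.970). The value of Lama5 was 0.06 without COR2 and 0.49 without VEH3. Lamb1 was at 265.4 CPM in COR2 and between 174.7 and 211.9 CPM in the other 5 libraries. Without COR2 its difference was -0.09. Lamb3, a β3 chain known from epithelia, ranged from 42.7 to 56.6 CPM with corticosterone and from 42.8 to 59.9 CPM with vehicle. Hsd11b1 lies within the span of Lamb3 on the opposite strand, but the annotation gives them no shared exon bases, and its level followed another order, with 108.4 CPM in VEH1 and 34.2 CPM in COR1.

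**Figure D3:**
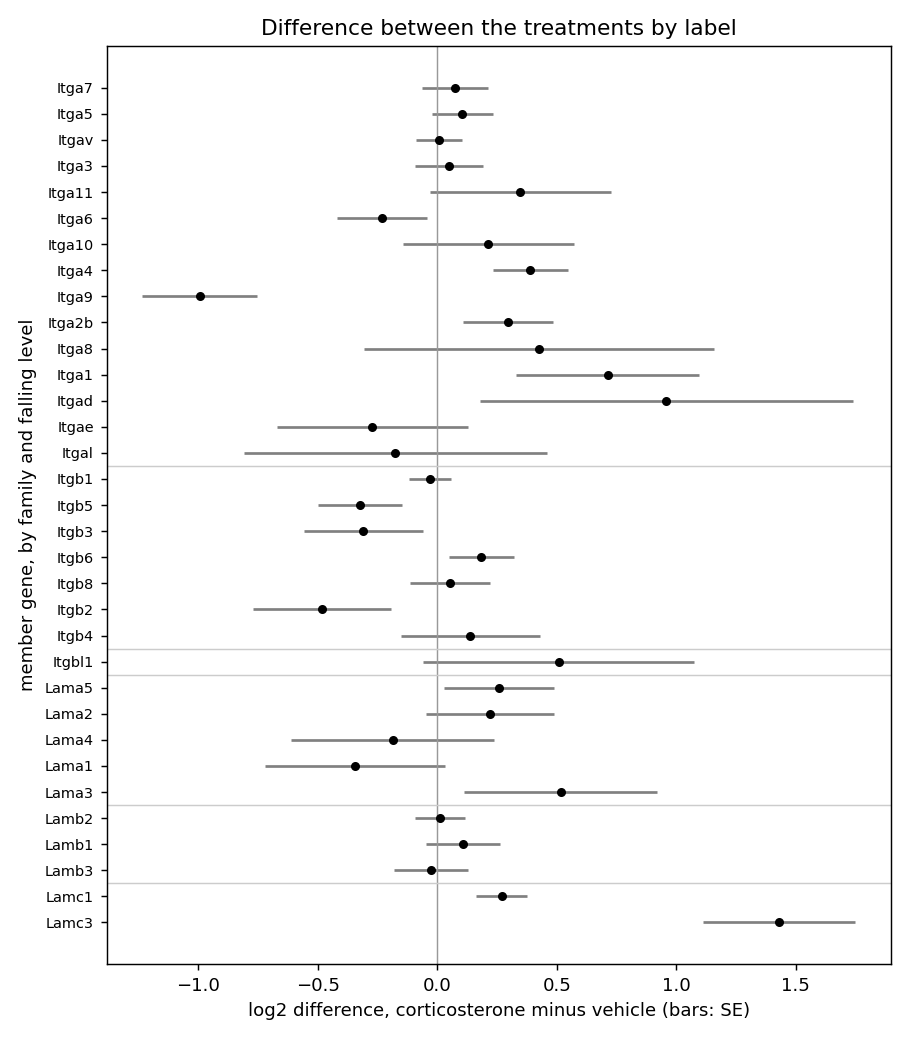
Log2 difference of all but 1 of the tested members, corticosterone minus vehicle by label, with its SE as a bar and members ordered by family and falling level per kb. Lamc3 at 1.43 and Itga9 at -0.99 lie farthest from 0, and the rest lie between -0.48 and 0.71 except the scarce Itgad at 0.96. None passed in edgeR, and DESeq2 called Lamc3 and Itga9.

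The members were then read in the arrangement of COR1, COR3 and VEH2 beside COR2, VEH1 and VEH3. CPM did not overlap for 6 of 34 members, 3 higher and 3 lower in COR1, COR3 and VEH2. The share over all genes was 9.63%, with 4.89% higher and 4.74% lower. The higher ones were Itga5, Itga8 and Itga10, and the lower ones Itga6, Itgb3 and Lamb1. Lamc3, Itga9 and Itga4 could not be among these, because no gene can be without overlap both by label and in this arrangement.

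Itga5, the α5 chain of the fibronectin receptor (ENSMUSG00000000555, chromosome 15, 103344286 to 103366763), stood at 257.9 CPM in COR1, 257.9 in COR3 and 246.5 in VEH2, beside 202.6 CPM in COR2, 195.2 in VEH1 and 226.6 in VEH3. Itga8, whose α8 chain binds nephronectin with β1 (ENSMUSG00000026768, chromosome 2, 12106632 to 12301922), stood at 2.10, 5.89 and 4.69 CPM in COR1, COR3 and VEH2, beside 1.58, 1.68 and 0.626 CPM in COR2, VEH1 and VEH3. It was low throughout, and COR1 was nearer to VEH1 than to COR3. Itga10, the α10 chain of a collagen receptor known from cartilage (ENSMUSG00000090210, chromosome 3, 96645584 to 96664519), gave 20.5, 18.9 and 23.3 CPM in COR1, COR3 and VEH2, beside 11.99, 11.8 and 8.98 CPM in COR2, VEH1 and VEH3. A gene model on the same strand shares 1739 of its exon bases (33.5%) and had 0 to 3 counts per library. Reads of Itga10 in the shared bases may be split or lost, so its level may be too low.

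Itga6, the α6 chain of a laminin receptor (ENSMUSG00000027111, chromosome 2, 71745616 to 71858416), gave 50.9, 49.4 and 53.2 CPM in COR1, COR3 and VEH2, beside 72.8, 75.2 and 74.8 CPM in COR2, VEH1 and VEH3. These were tight groups with a wide gap. Itgb3, the β3 chain that pairs with αv (ENSMUSG00000020689, chromosome 11, 104608000 to 104670476), gave 20.99, 18.2 and 23.9 CPM in COR1, COR3 and VEH2, beside 34.2, 32.1 and 35.0 CPM in COR2, VEH1 and VEH3. Lamb1 (ENSMUSG00000002900, chromosome 12, 31265234 to 31329644) gave 195.9, 174.7 and 181.0 CPM in COR1, COR3 and VEH2, beside 265.4, 198.0 and 211.9 CPM in COR2, VEH1 and VEH3, with COR1 and VEH1 close together. By label, none of these passed: the log2 differences were 0.10 for Itga5, 0.43 for Itga8, 0.21 for Itga10, -0.23 for Itga6, -0.31 for Itgb3 and 0.11 for Lamb1, with edgeR adjusted p from 0.629 to 0.829.

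Within the 3 near pairs, COR1 with VEH3, COR3 with COR2 and VEH2 with VEH1, the first minus the second can be read on the log2 CPM scale. For Itga8 it was 1.63, 1.86 and 1.44, for Itga10 1.19, 0.65 and 0.97, and for Itga5 0.19, 0.35 and 0.34. Itga6 gave -0.56, -0.56 and -0.50, and Itgb3 -0.74, -0.91 and -0.43. The direction was the same in all 3 pairs for 23 of 34 members (67.6%), beside 40.5% of all genes tested. Among them were Itga1, the α1 chain of a collagen receptor, at 0.65, 0.37 and 0.42, and Itgbl1 at 1.13, 0.34 and 0.70. For Lamc3 the differences were 0.42, 0.26 and 0.32 and for Itga9 -0.26, -0.10 and -0.56. Itga7 was also among them, lower in all 3 pairs at -0.21, -0.32 and -0.06, whereas Itgb1 changed sign between pairs at 0.10, -0.08 and 0.05.

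**Figure D4:**
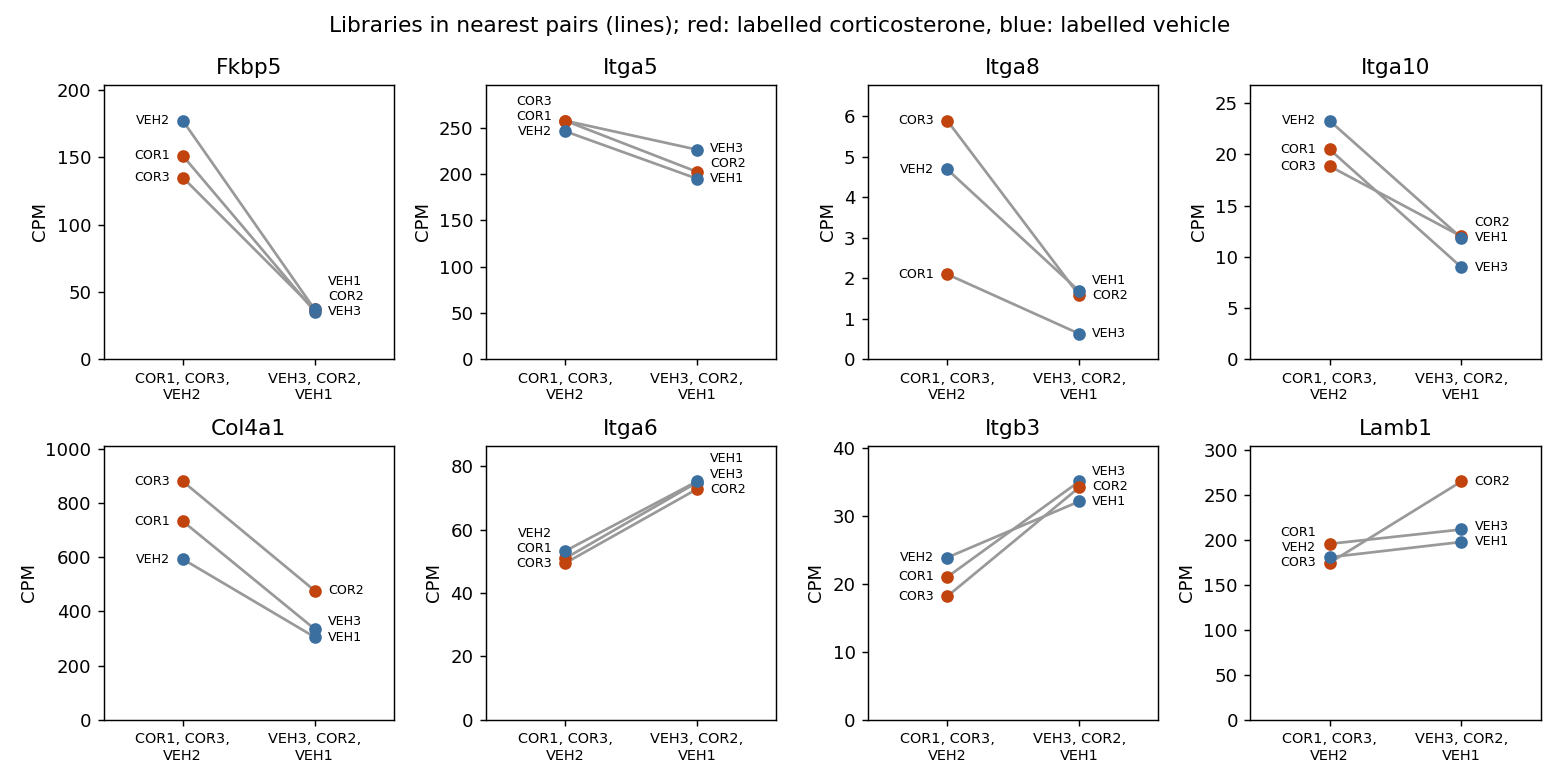
CPM of the glucocorticoid-induced gene Fkbp5, 6 members and the basement membrane gene Col4a1, with lines joining libraries that lie near each other over all genes and points coloured by label. COR1, COR3 and VEH2, on the left of each panel, lie above the libraries on the right for Fkbp5, Itga5, Itga8, Itga10 and Col4a1, and below them for Itga6, Itgb3 and Lamb1.

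Partners of integrins and laminins were read from a list of 60 gene symbols. They covered the basement membrane, the dystroglycan complex and the adhesion sites that integrins form. Of these symbols 59 were among the genes counted, Icap1 being absent, and 55 were tested. By label 0 passed in edgeR, 34 lay higher and 21 lower, the median log2 difference being 0.05, and CPM of 10 (6 higher, 4 lower) did not overlap. Unadjusted p was under 0.05 for 9. Over all genes 50.8% lay higher, 16.6% were without overlap (8.41% higher, 8.19% lower) and 11.8% had such a p. DESeq2 called 1, Ntn1, with an adjusted p that rounds to the threshold of 0.05. Ntn1 encodes the laminin-related guidance protein netrin 1. It stood at 70.2, 60.1 and 45.7 CPM with corticosterone, against 109.5, 93.8 and 75.9 CPM with vehicle. Its log2 difference was -0.67 ± 0.18 (SE, edgeR adjusted p = 0.364). Fermt2, whose product kindlin 2 activates integrins, lay higher, at 247.5, 251.4 and 273.5 CPM with corticosterone, against 214.2, 222.0 and 211.3 CPM with vehicle (log2 difference 0.26 ± 0.07, SE, edgeR adjusted p = 0.364). Of the remaining genes with the smallest p, the adhesion-site gene Tgfb1i1 had a log2 difference of 0.34, Dab2, an endocytic adaptor of integrins, of -0.31, and Itgb3bp of -0.79, with edgeR adjusted p from 0.365 to 0.402. Col4a1, which overlapped, differed by 0.76.

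The most abundant of these partners were Fn1, Dag1 and Flna. Fn1, which encodes fibronectin, the ligand of α5β1, stood at 6367, 11390 and 5171 CPM with corticosterone, against 6986, 5973 and 8069 CPM with vehicle, and its log2 difference of 0.13 turned to -0.28 without COR2. Dag1, dystroglycan, differed by 0.08 and Flna, the actin crosslinker filamin A, by 0.32 (edgeR adjusted p = 0.806 and 0.433).

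In the other arrangement 10 of the 55 list genes did not overlap, 8 higher and 2 lower in COR1, COR3 and VEH2, beside 9.63% of all genes (4.89% higher, 4.74% lower). Col4a1 and Col4a2 encode the collagen IV chains that form a network beside laminin. Col4a1 stood at 731.9, 878.8 and 592.3 CPM in COR1, COR3 and VEH2, beside 476.2, 305.0 and 334.6 CPM in COR2, VEH1 and VEH3, and Col4a2 at 533.9, 585.2 and 469.4 CPM beside 356.9, 260.8 and 245.5 CPM. Both were thus high in the libraries with high Fkbp5. Itgb1bp2, the muscle protein melusin that binds the β1 tail, Actn1, Actn4, Tns1, Tns2 and Cd81 were also higher, whereas Fn1 and the netrin gene Ntn4 were lower. Fibronectin and the α5 chain of its receptor therefore lay on opposite sides in this arrangement.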

How the data were processed

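RNA with poly(A) tails went into NEBNext Ultra libraries, per the labels' protocols, with no statement that strand was kept. The authors deposited raw read counts per gene, used here as deposited. Tools listed in the submitters' processing notes are DESeq2 1.24.0, HTSeq 0.6.1 and HISAT2 2.0.5, with the build mm10. Not given in the sources used here were the annotation release, strand setting and filters, so reads of overlapping genes may be split or lost.

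Coordinates and exon lengths come from GENCODE M21 (GRCm38), which held all 40 members. Genes were kept with filterByExpr, scaled by TMM and tested with edgeR 4.0.16 (quasi-likelihood, two-sided) in R 4.3.3, with Benjamini-Hochberg adjustment over 14450 genes, a threshold of 0.05 and no block. CPM is TMM-scaled. Differences within pairs of libraries use log2 CPM with a prior count of 2. The test was checked on simulated data with 200 genes changed. The simulated libraries had neither near pairs nor labels in doubt, so the check does not cover these. DESeq2 1.42.0 and limma 3.58.1 were alternatives, as were other scalings, filters, a replicate block and libraries left out. Floors cover counting error alone. No pair of libraries agreed within sampling noise (chi-square per degree of freedom from 15.5 to 55.5).

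The members and lists were chosen with earlier results of these data known. Named were Itga7 and Itgb1, members without overlap in either arrangement, those with the 3 smallest p per direction and the 8 highest per kb, and of the partner list the 3 smallest p per direction and the 3 most abundant. Of the members, 1 is counted but not reported here.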

Additional observations from a re-analysis of the deposited data

How the results depend on the processing

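The count of 0 integrin and laminin members called held under limma-voom, 3 other scalings, 2 other count filters, the replicate block (0 members, 0 list genes and 0 of all genes) and each library left out in turn. DESeq2 gave 2 members, 1 list gene and 138 of all genes. Leaving out COR1 and VEH3 gave 3 members, 2 list genes and 575 of all genes, and leaving out both libraries numbered 2 gave 3 of all genes. With 1 library left out, calls over all genes ran from 0 to 29, the highest without COR1, with 11 without VEH3. Deviations of same-numbered libraries from the means of their labels correlated at r of -0.153, -0.266 and -0.325. From the mean of the 6 libraries r was -0.403, -0.509 and -0.463. The numbers thus gave no sign of pairing the libraries.

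With all libraries edgeR called none of the named differences and DESeq2 called Lamc3, Itga9 and, at the edge of its threshold, Ntn1. Over the alternatives, 23 of 272 values of named members changed sign. By scaling, Itgav became -0.01 (upper quartile) and -0.04 (library totals), and Lamb2 became -0.004 and -0.034. Without both libraries numbered 2, Itga7 was -0.10, Itgav -0.062, Lama5 -0.046, Lamb1 -0.15, Dag1 -0.004 and Fn1 -0.38. Without COR1 and VEH3, Itga10 was -0.20, Itgav -0.006 and Lamb2 -0.012. With 1 library left out, Itga10 ran from -0.05 to 0.71, Itga7 from -0.029 to 0.19, Itga8 from -0.36 to 1.45, Itgav from -0.042 to 0.091, Itgb1 from -0.075 to 0.003, Lamb1 from -0.088 to 0.23, Lamb2 from -0.071 to 0.07 and Fn1 from -0.28 to 0.34. The cause was not tested. With their sign kept, Lamc3 ran from 1.21 to 1.79, Itga9 from -1.20 to -0.71, Lama5 from 0.064 (without COR2) to 0.495 (without VEH3), Itga5 from 0.01 (without VEH1) to 0.212 (without COR2), Itga6 from -0.433 (without COR2) to -0.131 (without COR3), Itgb3 from -0.63 (without COR2) to -0.136 (without COR3), Itgb2 from -0.711 (without VEH3) to -0.282 (without VEH1), Itgb5 from -0.492 (without VEH3) to -0.226 (without VEH2), Itga4 from 0.245 (without VEH2) to 0.471 (without VEH1) and Dag1 from 0.012 (without VEH2) to 0.178 (without VEH3). At this depth members under 1 CPM rest on few counts.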
